A study of Arabidopsis thaliana with 19 samples.

Results

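The genes described here form a run on the top arm of chromosome 5 of Arabidopsis thaliana, from AT5G02370 to AT5G03370 in the order of their AGI codes. Of 21313 genes in the table, 89 lay in this run, and 85 are its members after PRR7, AT5G02870, LUL1 and EIN2 were set aside. The run was selected on the differences between NILDOG1 and Ler measured in these same arrays, as a possible second introgressed segment of NILDOG1, so the values of that comparison are a description and support nothing beyond it. Seeds of 5 genotypes were measured on 19 ATH1 GeneChips. They were the accession Landsberg erecta (Ler, 5 arrays) and 4 near-isogenic lines in the Ler background, of which NILDOG1 (5 arrays), NILDOG2 (3 arrays) and NILDOG3 (3 arrays) carry a fragment from the accession Cvi and NILDOG6 (3 arrays) carries a fragment from Kas-2. All seeds were dormant whole seeds imbibed in water for 24 h, each replicate being a bulk of several plants. The labels describe plants grown in fewer replicates than the 5 arrays of Ler and NILDOG1, and their extraction text speaks of dry seeds, so the origin of replicates 4 and 5 is not settled.

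A near-isogenic line (NIL) holds a stretch of donor chromosome that was crossed into another accession and then kept through repeated backcrosses. Genes inside such a stretch carry donor alleles, and neighbouring genes travel together until a recombination separates them. Donor alleles can differ both in how strongly they are transcribed and in the bases that array probes match, and on a 3′ expression array a difference of transcript level and a difference of probe match cannot be told apart. The study names NILDOG1 after the locus DOG1 (delay of germination 1), a regulator of seed dormancy that lies lower on the same chromosome. It also draws the introgressed regions of each NIL along the chromosomes, a drawing that was not used here. No genotyping data were analysed here, so whether NILDOG1 carries donor DNA at the top of chromosome 5 was not tested.

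Values are deposited RMA levels on the log2 scale, so that a difference of 1 is a doubling, and they have no per-gene depth, so their precision is limited by the number of arrays. The 6 seed markers lay between 12.07 and 14.61 in all 19 arrays, and the 1 measured green leaf marker lay between 3.95 and 4.99. NILDOG6 replicate 1 stood apart from the other arrays of its line. The 85 members deviated from their Ler means by a median of 0.170 there against 0.255 and 0.244 in replicates 2 and 3. Over all genes these medians were 0.174 against 0.233 and 0.240, so this was not particular to the members. The counts for NILDOG6 and the NILDOG6 differences that this array moved by more than 1.5 times are also given without it. Names were found for 36 members, and the other 49 are given by AGI code with no function attached. Called genes are those whose limma p, after Benjamini-Hochberg adjustment over the whole table, lay under 0.05. In whole seeds, fewer cells that express a gene and less RNA per cell cannot be told apart.

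In NILDOG1 minus Ler, 12 of the 85 members were called, 5 higher and 7 lower, where 1.17% of all genes were called in this comparison, 0.366% higher and 0.807% lower. At an adjusted p under 1e-04, 3 members (AT5G02370, AT5G03345 and AT5G03370) were called, against 0.103% of all genes. The sizes ran from −2.42 for AT5G03345 to 1.33 for AT5G02370, and 8 members differed by more than 1 in either direction (9.41%, against 0.882% of all genes). The median difference of the 85 members was −0.06, with 53 below and 32 above 0, and over all genes the median was 0.02. These counts come from the comparison on which the run was chosen.

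**Figure D1:**
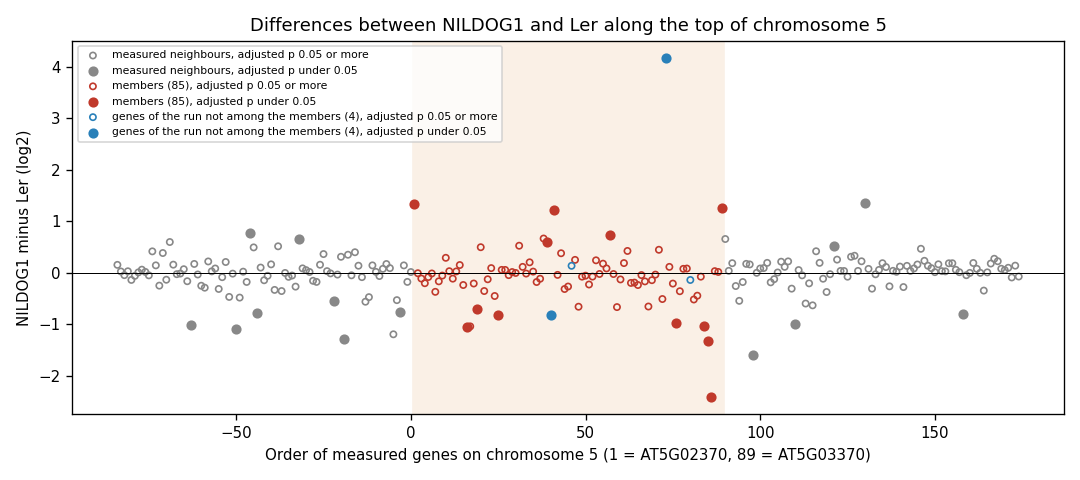
Differences between NILDOG1 and Ler (log2) for the run (shaded) and for 85 measured genes on each side, in the order of measured genes on chromosome 5, with filled points for adjusted p under 0.05. The 12 called members lie at both ends and in the middle of the run, LUL1 at 4.18 is the highest point, and called genes also occur outside the shading, 8 before and 5 after it.

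Among the members that were higher in NILDOG1, the first gene of the run, AT5G02370, measured 3.72, 3.79, 3.72, 3.66 and 4.00 in Ler, 5.25, 5.20, 4.69, 5.05 and 5.33 in NILDOG1, 4.10, 3.99 and 3.91 in NILDOG2, 4.46, 3.87 and 4.11 in NILDOG3, and 3.92, 3.85 and 3.95 in NILDOG6. All 5 NILDOG1 arrays lay above every one of the 14 other arrays. The mean was 3.78 ± 0.13 (SD, n = 5) in Ler and 5.10 ± 0.25 (SD, n = 5) in NILDOG1, a difference of 1.33 (SE 0.12, adjusted p = 2.69e-06) or 2.51-fold higher. The last gene of the run, AT5G03370, had values of 5.42, 5.78, 5.50, 5.68 and 5.58 in Ler, 6.62, 7.20, 6.99, 6.65 and 6.76 in NILDOG1, 5.49, 5.39 and 5.74 in NILDOG2, 5.21, 5.28 and 5.59 in NILDOG3, and 5.36, 5.57 and 5.66 in NILDOG6. Again the NILDOG1 arrays did not overlap with any other array. Its difference from Ler was 1.25 (SE 0.12, adjusted p = 6.49e-06), a 2.38-fold higher level.

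RHL2 encodes a DNA topoisomerase VI subunit that is needed for the rounds of DNA replication without division by which plant cells become polyploid. Its values were 7.06, 6.89, 6.79, 7.05 and 6.81 in Ler, 8.29, 8.30, 8.03, 7.79 and 8.32 in NILDOG1, 6.98, 6.94 and 6.79 in NILDOG2, 6.83, 6.67 and 6.63 in NILDOG3, and 6.68, 6.81 and 5.80 in NILDOG6. The NILDOG1 arrays stood above all others, and NILDOG6 replicate 3 was the lowest array. The difference between NILDOG1 and Ler was 1.22 (SE 0.15, adjusted p = 0.000139), or 2.34-fold higher. For AT5G03020 the arrays read 2.80, 2.93, 2.96, 3.07 and 3.12 in Ler, 3.81, 3.60, 3.98, 3.69 and 3.46 in NILDOG1, 3.05, 2.75 and 2.95 in NILDOG2, 3.19, 2.98 and 3.04 in NILDOG3, and 2.63, 2.70 and 2.70 in NILDOG6. This gene also separated NILDOG1 from the 14 other arrays, with a difference from Ler of 0.73 (SE 0.10, adjusted p = 0.00056), or 1.66-fold higher. Its Ler values all lay under the lower quartile of mean level over all genes (3.19), so this ratio starts from the low end of the scale.

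CDL1, a receptor-like cytoplasmic kinase that acts in brassinosteroid signalling, showed the smallest of the called rises. Its arrays gave 5.79, 6.25, 5.79, 5.78 and 5.87 in Ler, 6.61, 6.58, 6.54, 6.45 and 6.27 in NILDOG1, 6.19, 5.91 and 5.91 in NILDOG2, 6.06, 5.82 and 6.08 in NILDOG3, and 5.75, 6.36 and 5.92 in NILDOG6. The 5 NILDOG1 arrays lay above the 5 Ler arrays by a narrow margin, and NILDOG6 replicate 2 fell within the NILDOG1 range. The difference of 0.59 (SE 0.13, adjusted p = 0.0206) corresponded to a 1.51-fold higher level. This call was lost when Ler replicate 1 (adjusted p = 0.0683), 3 (0.0595), 4 (0.0717) or 5 (0.0537) or NILDOG1 replicate 1 (0.0646), 2 (0.0598) or 3 (0.0585) was left out.

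Of the members that were lower in NILDOG1, AT5G03345 had the largest difference of all 85. It measured 8.89, 8.37, 9.52, 8.91 and 9.50 in Ler, 6.13, 7.00, 6.14, 7.36 and 6.46 in NILDOG1, 8.81, 9.23 and 9.42 in NILDOG2, 8.92, 8.91 and 9.07 in NILDOG3, and 9.22, 8.82 and 8.03 in NILDOG6. Every NILDOG1 array lay below every other array, the nearest being NILDOG1 replicate 4 and NILDOG6 replicate 3. Its mean fell from 9.04 ± 0.48 (SD, n = 5) in Ler to 6.62 ± 0.55 (SD, n = 5) in NILDOG1, a difference of −2.42 (SE 0.26, adjusted p = 1.91e-05), or 5.35-fold lower. The spread of this gene within genotypes was also wide, with a pooled SD of 0.468 where the median over members was 0.230.

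The gene beside it, AtCDC48C, belongs to the CDC48 family of AAA ATPases, which extract ubiquitin-marked proteins from complexes and membranes. Its values were 7.52, 8.24, 7.60, 7.14 and 7.66 in Ler, 6.04, 6.43, 6.29, 6.73 and 6.02 in NILDOG1, 7.85, 7.66 and 7.69 in NILDOG2, 7.91, 8.16 and 7.96 in NILDOG3, and 7.48, 8.02 and 8.35 in NILDOG6. The NILDOG1 arrays were again below all 14 others. The difference was −1.33 (SE 0.18, adjusted p = 0.000396), or 2.51-fold lower. AT5G03320, which precedes AtCDC48C among the members, read 6.29, 6.08, 6.45, 5.78 and 5.76 in Ler, 4.93, 5.36, 4.80, 5.63 and 4.45 in NILDOG1, 5.83, 6.06 and 5.78 in NILDOG2, 5.56, 5.61 and 5.58 in NILDOG3, and 6.00, 5.85 and 6.08 in NILDOG6. Here NILDOG1 and Ler did not overlap, but NILDOG1 replicate 4 reached the range of NILDOG3. The difference of AT5G03320 from Ler was −1.04 (SE 0.18, adjusted p = 0.00437), so that the members at positions 80, 81 and 82 of the 85 were all lower in NILDOG1.

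UBQ3, one of the polyubiquitin genes, measured 8.81, 9.22, 9.03, 8.64 and 8.00 in Ler, 7.94, 7.03, 8.01, 7.96 and 7.88 in NILDOG1, 8.73, 8.54 and 8.42 in NILDOG2, 8.97, 9.08 and 8.85 in NILDOG3, and 7.65, 8.40 and 8.63 in NILDOG6. The groups overlapped, since Ler replicate 5 lay at the level of NILDOG1 replicate 3, and NILDOG1 replicate 2 was far below the rest of its group. The difference was −0.98 (SE 0.22, adjusted p = 0.0321). It was −1.36 within replicates 1 to 3 and −0.40 within replicates 4 and 5. The call was lost without Ler replicate 1 (adjusted p = 0.0882), 3 (0.0892) or 4 (0.0736), and without NILDOG1 replicate 1 (0.055), 2 (0.0882) or 5 (0.0558).

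Cand6, named as a candidate G-protein coupled receptor, had arrays at 6.49, 6.68, 6.44, 6.29 and 6.08 in Ler, 6.03, 5.70, 5.48, 5.13 and 5.57 in NILDOG1, 6.45, 6.45 and 6.25 in NILDOG2, 6.03, 6.22 and 6.18 in NILDOG3, and 6.13, 6.03 and 6.15 in NILDOG6. NILDOG1 lay below Ler without overlap, and NILDOG1 replicate 1 was level with the lowest NILDOG3 and NILDOG6 arrays. The difference was −0.81 (SE 0.14, adjusted p = 0.00396), or 1.76-fold lower. AT5G02540 gave 4.11, 2.99, 4.37, 3.99 and 3.99 in Ler, 2.54, 2.65, 2.98, 3.18 and 2.79 in NILDOG1, 3.3, 3.61 and 3.45 in NILDOG2, 3.36, 3.11 and 2.98 in NILDOG3, and 3.16, 3.18 and 3.19 in NILDOG6. Ler replicate 2 lay within the NILDOG1 range, and the NILDOG2, NILDOG3 and NILDOG6 arrays were also below the remaining Ler arrays. AT5G02540 differed from Ler by −1.06 (SE 0.19, adjusted p = 0.00563) in NILDOG1. In the other lines it differed by −0.44 (adjusted p = 0.758) in NILDOG2, −0.74 (adjusted p = 0.0714) in NILDOG3 and −0.71 (adjusted p = 0.082) in NILDOG6. The NILDOG1 values of AT5G02540 all lay under the lower quartile of mean level over all genes (3.19). Its NILDOG1 call was lost with replicates 1 to 3 only (limma adjusted p = 0.0934).

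AT5G02570 measured 4.34, 4.08, 4.93, 4.70 and 4.53 in Ler, 3.77, 4.11, 3.48, 3.97 and 3.75 in NILDOG1, 4.68, 4.38 and 4.67 in NILDOG2, 4.28, 3.88 and 4.27 in NILDOG3, and 4.13, 4.38 and 3.94 in NILDOG6. NILDOG1 replicate 2 lay just above the lowest Ler array, and both Ler and NILDOG1 overlapped with NILDOG3 and NILDOG6. The difference was −0.70 (SE 0.15, adjusted p = 0.0279). It was no longer called without Ler replicate 3 (adjusted p = 0.0831), 4 (0.0947) or 5 (0.0664) or without NILDOG1 replicate 1 (0.0741), 3 (0.0965) or 5 (0.0654).

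**Figure D2:**
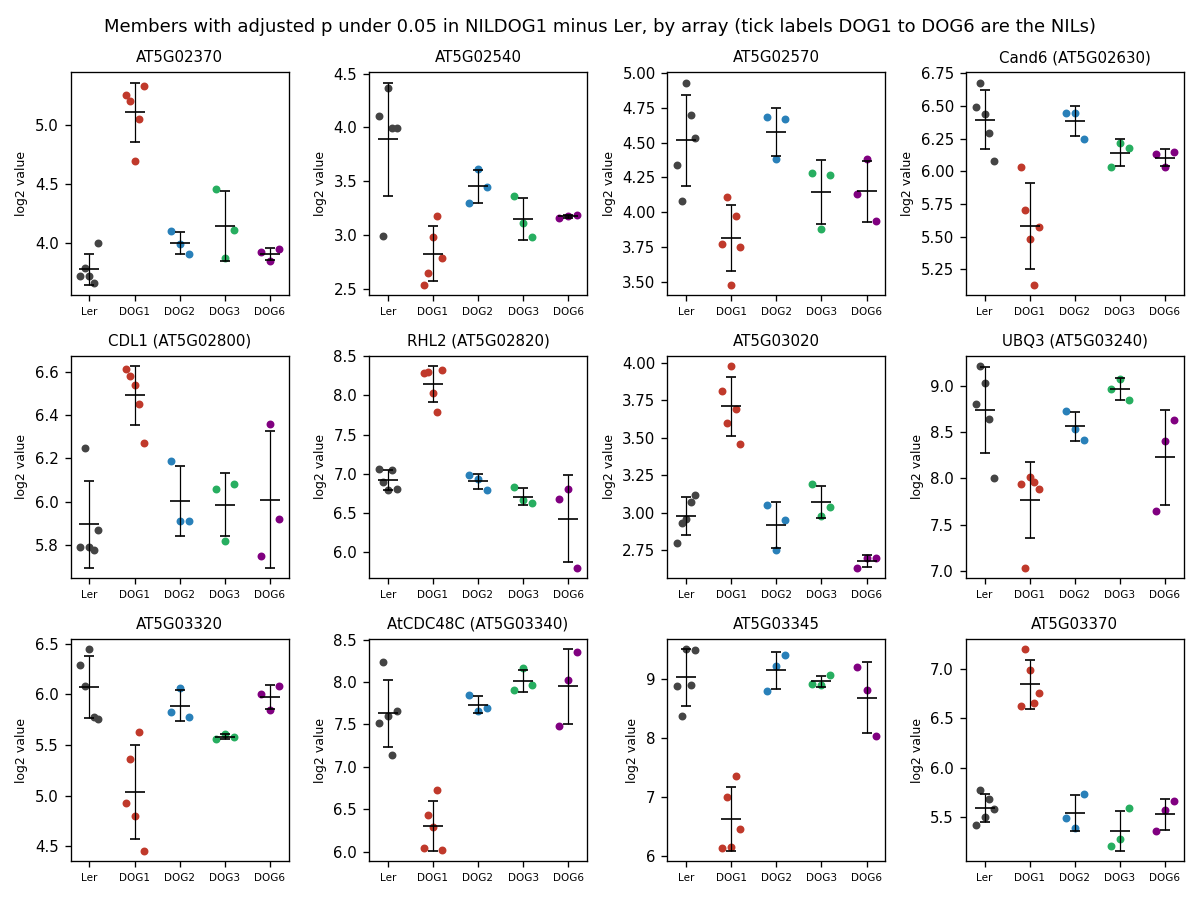
Log2 value of each of the 12 called members in each of the 19 arrays, by genotype, with horizontal bars for the mean and whiskers for the SD (n = 5 for Ler and NILDOG1, n = 3 for the other lines). In AT5G02370, RHL2, AT5G03020 and AT5G03370 the NILDOG1 points stand above all other points, and in AtCDC48C and AT5G03345 they stand below all of them.

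Counted over all members, 5 were higher in every NILDOG1 array than in every Ler array and 7 were lower, against 0.957% and 1.18% of all genes. Of these 12, 9 were among the called members, and the 3 others were AT5G02550, JKD and IDH-V, all lower in NILDOG1. AT5G02550 read 5.17, 4.36, 4.67, 5.18 and 5.25 in Ler and 3.46, 4.20, 3.60, 4.03 and 4.12 in NILDOG1, a difference of −1.04 (SE 0.27, adjusted p = 0.0639). JKD, a zinc finger protein of root tissue patterning, read 4.37, 4.54, 4.58, 4.61 and 4.79 in Ler and 4.03, 3.49, 3.60, 4.34 and 4.13 in NILDOG1, a difference of −0.66 (SE 0.19, adjusted p = 0.127). IDH-V, a catalytic subunit of mitochondrial NAD-dependent isocitrate dehydrogenase, read 8.37, 8.18, 8.08, 8.34 and 8.07 in Ler and 7.75, 8.02, 8.00, 7.23 and 7.44 in NILDOG1, a difference of −0.52 (SE 0.15, adjusted p = 0.128). The 73 members that were not called differed by −1.04 to 0.66, with a median of −0.05 and a median size of 0.15.

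Against the 14 arrays of all other genotypes, 4 members were higher in every NILDOG1 array (0.216% of all genes) and 2 were lower in every one (0.178%), which are the 6 named in the plot of called members by array. The same 6 members were past the threshold against each of NILDOG2, NILDOG3 and NILDOG6, which their separation from all 14 other arrays makes likely. The share of all genes past the threshold against each of these lines was not computed. These comparisons share the NILDOG1 arrays with the choice of the run and are given as a description. In NILDOG1 minus NILDOG2, 10 members were called (2.56% of all genes), in NILDOG1 minus NILDOG3 there were 8 (0.732%), and in NILDOG1 minus NILDOG6 there were 10 (2.6%). Without NILDOG6 replicate 1 the last count was 11 (3.55%), and the 6 members were still among them. All 12 called members differed from Ler in the same direction within replicates 1 to 3 and within replicates 4 and 5. These are the arrays that gave the calls, so a shared direction largely follows from the calls. The share over all called genes was not computed. In that order the differences were −2.50 and −2.29 for AT5G03345, 1.37 and 1.07 for AT5G03370, and 0.90 and 0.48 for AT5G03020.

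Of the 4 genes set aside from the run, LUL1 had the largest difference between NILDOG1 and Ler. LUL1, a LOG2-like ubiquitin ligase, measured 4.04, 3.96, 4.29, 3.85 and 4.09 in Ler and 8.06, 8.28, 8.46, 8.27 and 8.05 in NILDOG1, without overlap, and 3.71, 3.62 and 4.70 in NILDOG2, 4.38, 4.01 and 3.69 in NILDOG3, and 3.99, 3.65 and 3.81 in NILDOG6. It lies between the called members AT5G03020 and UBQ3. PRR7, a repressor of the circadian clock, lies between CDL1 and RHL2 and measured 6.81, 7.40, 6.81, 6.61 and 7.26 in Ler and 6.15, 5.77, 6.67, 6.16 and 6.02 in NILDOG1, where NILDOG1 replicate 3 lay just above the lowest Ler array.

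The ends of the run did not mark an end of the called genes. Inside the lower end, AT5G02370 differed by 1.33, the next member MT2B by −0.01 and the third, DAU1, by −0.11. Outside it, the 5 nearest measured genes differed by −0.53 (ABCI20), −0.76 (AT5G02280), 0.14 (NAK), −0.18 (PRT6) and 0.01 (AT5G02350). AT5G02280 read 7.99, 7.81, 7.52, 7.97 and 7.79 in Ler and 6.96, 7.26, 7.05, 6.97 and 7.03 in NILDOG1, without overlap, and its adjusted p was 0.000541. Inside the upper end, AT5G03370 differed by 1.25 and the members before it, AT5G03360 and AT5G03350, by 0.01 and 0.03. Beyond it, the 5 nearest measured genes differed by 0.65 (AT5G03380), 0.04 (AT5G03390), 0.18 (AT5G03400), −0.26 (DPB) and −0.55 (AT5G03420), and none of these 5 was called.

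Over wider windows, 8 of the 85 measured genes before the run (9.41%) and 5 of the 85 after it (5.88%) were called in NILDOG1 minus Ler, beside 12 of the 85 members (14.1%). In the stretch around DOG1 from AT5G38780 to AT5G48350, which was likewise known from this comparison, 82 of 767 genes were called (10.7%), and on the other chromosomes 0.688% of genes were. The median size of the difference was 0.19 among members, 0.15 before the run, 0.14 after it, 0.14 around DOG1 and 0.11 over all genes. Within the run, the first 28 members held 1 higher and 3 lower calls, the middle 29 held 3 higher and none lower, and the last 28 held 1 higher and 4 lower.

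The named members were also sorted by what they do, into lists drawn up with earlier results of these data known. Listed members without a name in the reference were left out of these counts, so the counts do not cover whole lists. The called members without a name enter none of them. These were AT5G02370, AT5G03020 and AT5G03370, higher in NILDOG1, and AT5G02540, AT5G02570, AT5G03320 and AT5G03345, lower. Of 9 members listed in protein folding and turnover, 6 were named. The 6 had a median difference of −0.13 in NILDOG1, against 0.02 over all genes. Of the 6, 2 were lower (UBQ3 and AtCDC48C) and 4 were not called, where 0.807% of all genes were lower and 0.366% higher. The 4 were Hsp70-2 and HSC70-1, both cytosolic Hsp70 chaperones, the ubiquitin ligase UPL4 (difference 0.25) and the co-chaperone P58IPK (difference −0.15). Of 7 members listed in chromatin and the cell cycle, 4 were named. Among these 4, RHL2 was higher, where 0.366% of all genes were. DPA, a partner of E2F factors, KNL2, a centromere protein, and the histone H2A gene HTA12 were not called, with differences of 0.29, 0.15 and −0.21.

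Of 4 members listed as protein kinases and phosphatases, 3 were named. Among these 3, CDL1 was higher, where 0.366% of all genes were. The phosphatase APD7 (0.02) and the lectin receptor kinase LecRK-VIII.2 (−0.17) were not called. The list of transcription factors and Mediator held 4 members, and neither of the 2 named ones, LCL1 (0.38) and JKD (−0.66), was called. Of 12 members listed in metabolism and detoxification, 9 were named, and none of the 9 was called in NILDOG1. Their median difference there was −0.08 and their range −0.52 for IDH-V to 0.66 for GSTL3, a lambda-class glutathione transferase. Gene lists of ribosomal proteins and of F-box and kelch proteins held no member with a name in the reference and were not used.

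The other lines give measurements of these genes that did not enter the choice of the run through their own arrays, although they share the Ler arrays with it. In NILDOG2 minus Ler, no member passed the threshold in limma, against 0.305% of all genes, and 4 had an unadjusted p under 0.05, against 6.78%. The members differed by −0.57 (HTA12) to 0.30 (AT5G02910), with a median of −0.04. In NILDOG3 minus Ler, 2 members were lower, AT5G03230 and ADK2, against 2.88% of all genes called and 2.2% called lower, and 11 members had an unadjusted p under 0.05 (17.1% of all genes). In NILDOG6 minus Ler, 1 member, again AT5G03230, was lower, against 2.36% of all genes called and 1.4% called lower, and 21 members had an unadjusted p under 0.05 (18.8%), or 22 (24.3%) without NILDOG6 replicate 1.

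AT5G03230 measured 5.24, 5.12, 5.51, 5.01 and 4.87 in Ler, 4.94, 4.91, 5.26, 4.93 and 4.66 in NILDOG1, 4.85, 4.67 and 4.75 in NILDOG2, 4.54, 4.66 and 4.68 in NILDOG3, and 4.66, 4.56 and 4.65 in NILDOG6. All arrays of NILDOG2, NILDOG3 and NILDOG6 lay below every Ler array, the highest of them at 4.85 against 4.87 for Ler replicate 5, while NILDOG1 overlapped with Ler. The difference was −0.52 (SE 0.14, adjusted p = 0.0441) in NILDOG3 and −0.53 (SE 0.14, adjusted p = 0.0468) in NILDOG6. In NILDOG2 it was −0.40 (SE 0.14, adjusted p = 0.454). Of the 19 fits that left out 1 array, 7 kept the NILDOG3 call and 5 kept the NILDOG6 call. Both calls were lost with quantile normalization, with a trended prior and with only the compared groups in the fit. The NILDOG3 and NILDOG6 calls ended when each array was centred on its median (−0.40, adjusted p = 0.0939, and −0.42, adjusted p = 0.0813). The array medians of these lines lay 0.12 and 0.11 below those of Ler, and centring adds these amounts to every difference. The typical gene was not lower, since the median difference over all genes was 0.0145 in NILDOG3 and 0.0095 in NILDOG6.

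ADK2 encodes adenosine kinase, which recycles adenosine to AMP. Its arrays read 8.86, 8.38, 8.51, 8.98 and 8.63 in Ler, 8.16, 8.16, 8.09, 8.21 and 8.51 in NILDOG1, 8.62, 8.87 and 8.66 in NILDOG2, 8.21, 7.89 and 8.27 in NILDOG3, and 8.49, 8.19 and 8.11 in NILDOG6. The NILDOG3 arrays lay below all Ler arrays, and the NILDOG1 values other than replicate 5 lay at the NILDOG3 level. The differences from Ler were −0.55 (SE 0.15, adjusted p = 0.0499) in NILDOG3 and −0.45 (SE 0.13, adjusted p = 0.113) in NILDOG1. This NILDOG3 call stood at the threshold and was lost without 15 of the 19 arrays, with an adjusted p of 0.313 without NILDOG3 replicate 2.

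Both the NILDOG3 and the NILDOG6 counts changed with single arrays. In NILDOG3, 6 members (7.06%) were called without Ler replicate 2, where 6.9% of all genes were. The NILDOG3 count was 1 without Ler replicate 5, NILDOG1 replicate 3 or NILDOG6 replicate 2 (2.89% to 3.17% of all genes), 2 without NILDOG1 replicate 5 or NILDOG6 replicate 1 or 3 (2.78% to 4.48%), and 0 without any of the 12 others (0.535% to 2.86%). In NILDOG6, 4 members were lower without NILDOG6 replicate 1, against 8.39% of all genes called and 5.34% called lower. They were AT5G02450 (−0.57, adjusted p = 0.0298), AT5G02610 (−0.69, adjusted p = 0.0179), AT5G03230 (−0.55, adjusted p = 0.0415) and AT5G03250 (−0.54, adjusted p = 0.0273). The NILDOG6 count was 2 without Ler replicate 2 (4.51% of all genes) or 5 (2.96%), 1 without NILDOG1 replicate 3 (2.23%) or 5 (2.32%), and 0 without any of the 14 others (0.192% to 2.38%).

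**Figure D3:**
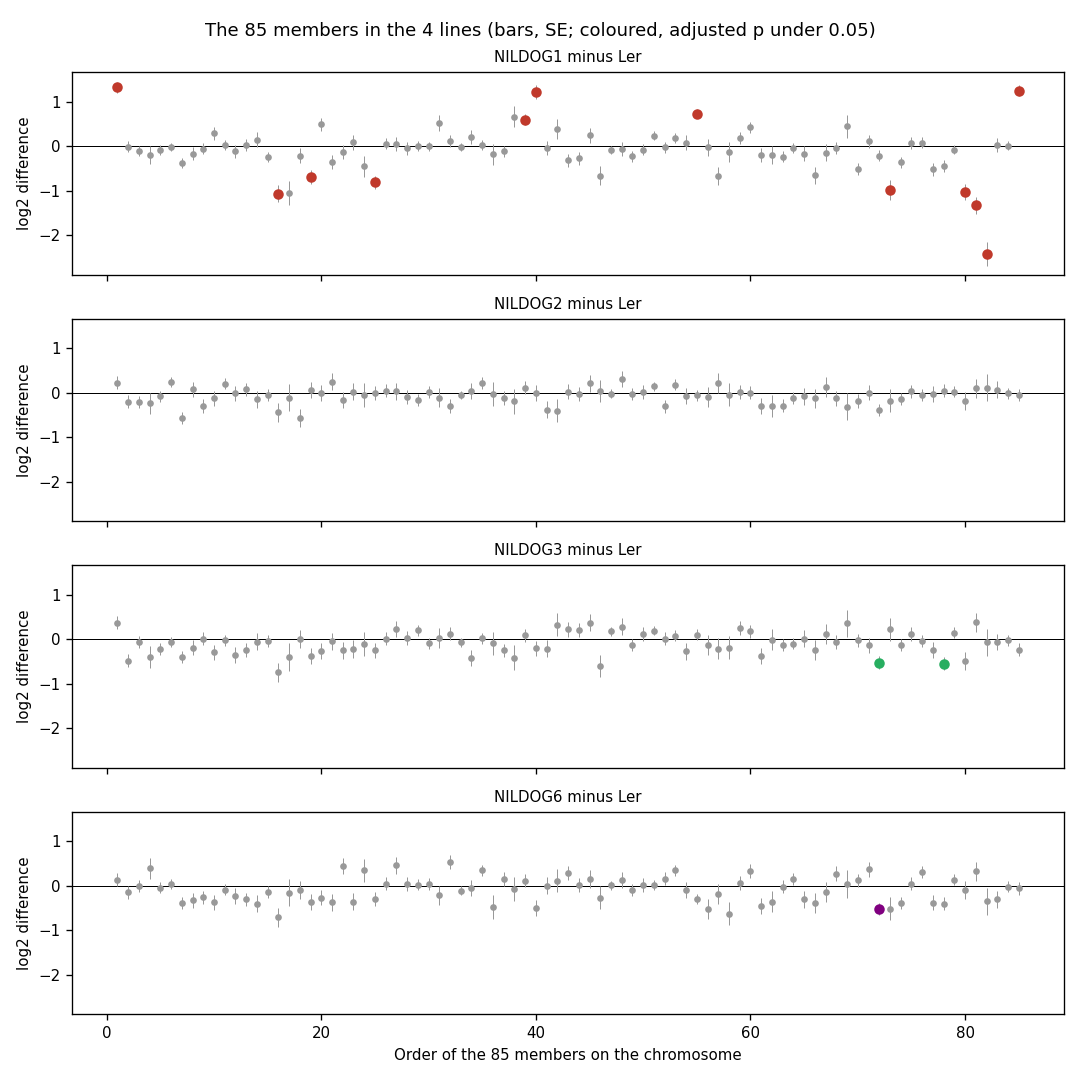
Difference of each line from Ler (log2, bars for the SE) for the 85 members in chromosome order, one panel per line, with coloured points for adjusted p under 0.05. NILDOG1 shows 12 coloured points between −2.42 and 1.33, NILDOG2 none, NILDOG3 2 and NILDOG6 1. No member differs by more than 1 in NILDOG2, NILDOG3 or NILDOG6, where 0.328%, 1.80% and 1.09% of all genes do.

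No member differed from Ler by more than 1 in NILDOG2, NILDOG3 or NILDOG6, where the largest differences were 0.57, 0.74 and 0.71 in size. The 8 members that differed by more than 1 in NILDOG1 differed in the other lines as follows. AT5G02370 was at 0.22, 0.37 and 0.13, AT5G03370 at −0.05, −0.24 and −0.06 and RHL2 at −0.01, −0.21 and −0.49 in NILDOG2, NILDOG3 and NILDOG6. AtCDC48C was at 0.10, 0.38 and 0.32 in the same order, AT5G03345 at 0.12, −0.07 and −0.35 and AT5G03320 at −0.18, −0.49 and −0.10. AT5G02540 was at −0.44, −0.74 and −0.71 and AT5G02550 at −0.11, −0.40 and −0.16. Leaving out NILDOG6 replicate 1 moved the NILDOG6 difference of AtCDC48C to 0.55, that of AT5G03345 to −0.61, that of AT5G02550 to −0.25 and that of AT5G03370 to 0.03, none of them called, and the largest NILDOG6 difference in size was then that of AT5G03050 at −0.86. All 4 comparisons share the Ler arrays.

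A comparison among NILDOG2, NILDOG3 and NILDOG6 set none of the group means on which the run was chosen against each other, but the spread in its test came from all 19 arrays, those of Ler and NILDOG1 included. In the moderated F test over these 9 arrays' genotype means, 1 member was called, AT5G02720, against 3.58% of all genes, and 10 members had an unadjusted p under 0.05 (18.9% of all genes), or 12 (22%) without NILDOG6 replicate 1. AT5G02720 measured 3.62, 3.48, 3.89, 3.85 and 4.05 in Ler, 4.03, 3.95, 3.76, 3.79 and 3.93 in NILDOG1, 3.44, 3.39 and 3.63 in NILDOG2, 4.16, 3.57 and 3.99 in NILDOG3, and 4.55, 4.38 and 3.98 in NILDOG6. NILDOG6 was highest and NILDOG2 lowest with no overlap between them, while NILDOG3 overlapped NILDOG2 and NILDOG6. The range between line means was 0.82 (adjusted p = 0.0268 in the F test), and of the 3 pairs only NILDOG2 minus NILDOG6 passed the threshold, at −0.82 (SE 0.17, adjusted p = 0.0221), where 1.66% of all genes did. No member was called in NILDOG2 minus NILDOG3 (3.2% of all genes) or in NILDOG3 minus NILDOG6 (0.455%).

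The AT5G02720 call was lost when the spread was taken from the 9 arrays of these lines alone (adjusted p = 0.0672), where 3.71% of all genes were called and no member was. It was also lost without NILDOG2 replicate 1 (adjusted p = 0.0825), 2 (0.122) or 3 (0.0513) and without NILDOG6 replicate 1 (0.0563) or 2 (0.0786). Without NILDOG6 replicate 1, where 7.21% of all genes were called, the 1 member called was ADK2 (range 0.59, adjusted p = 0.041). The count was 2 without NILDOG6 replicate 3 (2.97% of all genes). NILDOG2 minus NILDOG6 without NILDOG6 replicate 1 held 3 called members (6.78% of all genes), AT5G02450 and AT5G02610 beside AT5G02720, which was at −0.70 (adjusted p = 0.0303), and NILDOG3 minus NILDOG6 held none (0.802%). In NILDOG1, AT5G02720 lay within the range of Ler.

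Within Ler and NILDOG1, replicates 4 and 5 differed from replicates 1 to 3 in 1 member, LCL1, against 2.15% of all genes. LCL1, a MYB-like transcription factor of the LHY and CCA1 family that includes clock components, is also on the study's list of genes higher in dormant seeds. It measured 8.29, 8.85, 8.59, 7.72 and 7.80 in Ler, 9.06, 8.83, 9.05, 8.11 and 8.10 in NILDOG1, 8.01, 7.48 and 8.06 in NILDOG2, 8.57, 8.65 and 8.50 in NILDOG3, and 8.15, 8.49 and 8.45 in NILDOG6. In both genotypes replicates 4 and 5 were below all of replicates 1 to 3, on average by 0.82 in Ler and 0.88 in NILDOG1, and the fitted difference was −0.85 (SE 0.12, adjusted p = 0.00644) in limma. The count was 2 without Ler replicate 1 (3.18% of all genes), 2 (2.35%) or 5 (0.708%) and 3 without NILDOG1 replicate 2 (1.38%). No member had a genotype difference that changed between the replicate sets at an adjusted p under 0.05, where 0% of all genes did, and 5 members had an unadjusted p under 0.05, against 4.63%. UBQ3 was one of the 5 (unadjusted p = 0.0340).

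The members covered most of the range of the array. Mean levels over the 19 arrays ran from 2.59 to 12.85, with 13 members below the lower quartile of all genes (3.19), 31 between it and the median (4.75), 19 between the median and the upper quartile (7.07) and 22 above that. Probe sets differ in brightness, so these values place a gene on the array's scale and do not order transcript amounts. The pooled SD within genotypes had a median of 0.230 over members and 0.217 over all genes.

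The highest values were those of HSC70-1, which read 13.28, 13.01, 12.93, 12.69 and 12.67 in Ler, 13.13, 12.87, 12.73, 13.07 and 12.91 in NILDOG1, 12.76, 13.19 and 13.02 in NILDOG2, 12.79, 12.60 and 12.60 in NILDOG3, and 12.92, 12.37 and 12.53 in NILDOG6. MT2B, a metallothionein that binds metals, read 11.94, 11.46, 12.01, 11.80 and 11.58 in Ler, 11.90, 11.95, 11.82, 11.48 and 11.59 in NILDOG1, 11.58, 11.54 and 11.55 in NILDOG2, 11.28, 11.25 and 11.30 in NILDOG3, and 11.77, 11.77 and 11.30 in NILDOG6. Both were lowest in NILDOG3 or NILDOG6 arrays, and between NILDOG1 and Ler HSC70-1 differed by 0.02 (SE 0.13, adjusted p = 0.974) and MT2B by −0.01 (SE 0.13, adjusted p = 0.989). AT5G02450 read 11.30, 10.98, 11.30, 11.35 and 11.37 in Ler, 10.98, 11.17, 11.00, 11.20 and 11.12 in NILDOG1, 11.22, 11.36 and 11.42 in NILDOG2, 10.92, 10.97 and 11.33 in NILDOG3, and 11.40, 10.96 and 10.42 in NILDOG6. AT5G02610 read 10.49, 9.98, 10.20, 10.59 and 10.24 in Ler, 10.12, 10.58, 10.21, 10.43 and 10.62 in NILDOG1, 10.23, 10.40 and 10.34 in NILDOG2, 10.22, 9.85 and 10.17 in NILDOG3, and 10.59, 9.59 and 9.64 in NILDOG6. In both, NILDOG6 replicate 1 lay at the top of its line and replicates 2 and 3 at the bottom. AT5G02530 read 9.55, 9.54, 9.55, 9.34 and 9.16 in Ler, 9.52, 9.10, 9.24, 8.82 and 9.26 in NILDOG1, 9.41, 9.50 and 9.22 in NILDOG2, 9.43, 9.33 and 9.40 in NILDOG3, and 9.35, 9.24 and 9.27 in NILDOG6, with its lowest value in NILDOG1 replicate 4.

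At the other end, CYP96A13, a cytochrome P450, read 2.51, 2.83, 2.47, 2.58 and 2.53 in Ler, 2.51, 2.52, 2.58, 2.50 and 2.43 in NILDOG1, 2.48, 2.57 and 2.63 in NILDOG2, 2.81, 2.83 and 2.65 in NILDOG3, and 2.64, 2.55 and 2.60 in NILDOG6. SAUR44, of the small auxin-up RNA family, read 2.56, 2.55, 2.56, 2.58 and 2.58 in Ler, 2.46, 2.51, 2.43, 2.31 and 2.73 in NILDOG1, 2.46, 2.62 and 2.68 in NILDOG2, 2.55, 2.78 and 2.80 in NILDOG3, and 2.86, 2.82 and 2.41 in NILDOG6. GSTL1, the neighbour of GSTL3, read 2.79, 2.60, 2.94, 2.78 and 2.91 in Ler, 2.82, 2.66, 2.67, 2.76 and 2.53 in NILDOG1, 2.80, 2.62 and 2.64 in NILDOG2, 2.76, 2.53 and 2.37 in NILDOG3, and 2.84, 3.44 and 2.57 in NILDOG6. These genes stayed near the bottom of the scale in all genotypes, apart from GSTL1 in NILDOG6 replicate 2. AT5G03130 read 2.71, 2.96, 2.90, 3.04 and 2.76 in Ler, 3.12, 2.68, 2.86, 2.61 and 2.87 in NILDOG1, 2.71, 2.77 and 2.78 in NILDOG2, 2.63, 2.82 and 2.87 in NILDOG3, and 2.80, 3.17 and 3.09 in NILDOG6. AT5G02420 read 3.02, 3.28, 2.73, 3.02 and 2.77 in Ler, 2.77, 2.94, 2.95, 2.94 and 2.82 in NILDOG1, 2.80, 3.04 and 2.81 in NILDOG2, 2.74, 2.79 and 2.71 in NILDOG3, and 3.16, 2.74 and 2.86 in NILDOG6. None of the 5 differed between NILDOG1 and Ler by more than 0.12 in size.

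**Figure D4:**
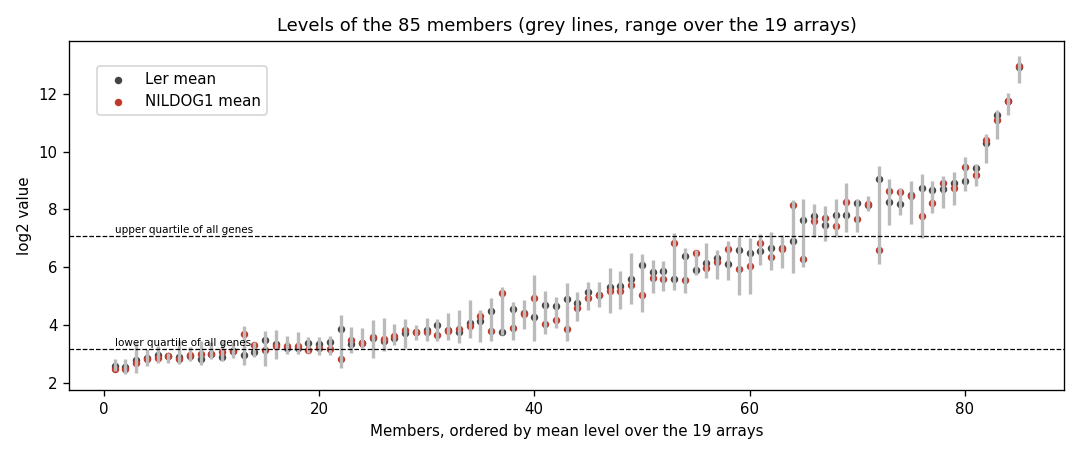
Log2 level of the 85 members ordered by their mean over the 19 arrays, with grey lines for the range over arrays, points for the Ler and NILDOG1 means and dashed lines for the quartiles of all genes. Most pairs of means lie close together, and AT5G03345, with a Ler mean of 9.04 and a NILDOG1 mean of 6.62, has the widest gap.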

How the data were processed

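Total RNA from whole seeds was hybridized by the authors to ATH1 GeneChips, and the deposited table holds log2 values that the authors normalized with RMA, the only tool named in the submitters' processing notes. RMA equalizes the distribution of probe values between arrays, so that a shift shared by most genes is removed, and it summarizes the probes of a gene into 1 value. The build and probe annotation are not given in the sources used here, and no detection calls, probe values or scan batches were used. RefSeq's gene table (TAIR10.1) supplied the names and the gene order, and no coordinates are given.

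Groups followed the genotype in the labels. A model of 5 genotype means over all 19 arrays was fitted to all 21313 genes with limma 3.58.1 in R 4.3.3 (lmFit and eBayes, constant prior, no covariate, no filter), with Benjamini-Hochberg adjustment over all genes and calls at an adjusted p under 0.05. The moderated F test among NILDOG2, NILDOG3 and NILDOG6 used the same fit, and the replicate sets of Ler and NILDOG1 were compared with genotype as a term. P-values set differences between group means against the spread of these arrays within groups. The scripts were tested on simulated data. Summaries were made in Python 3.11.15 with numpy 2.4.6 and pandas 2.3.3.

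The members and gene lists were chosen with earlier results of these data known, and the run was chosen on NILDOG1 minus Ler. Any member could be named. Values in every array are given for members called in NILDOG1 minus Ler or in the F test and for the 5 members highest and the 5 lowest by mean level, differences for the 5 measured genes outside each end, and counts and medians for the lists. AT5G03230, ADK2, LCL1 and the members that did not overlap with Ler were added as the few members their counts consist of. Alternatives were the low-value filter at the 30th percentile, median centring, quantile normalization, a trended prior, array weights, only the compared groups, replicates 1 to 3 only, a block for the replicate number, a term for the replicate set, stricter thresholds (0.01 and 1e-04) and leaving out each array.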

Additional observations from a re-analysis of the deposited data

Results flagged for a closer look

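Of the members named above, 16 were examined in their groups of 5 arrays. They were those called against Ler, in the F test or between the replicate sets. In 4 of the 16, the gap of 1 array to the nearest other array took an unusually large share of the group's range. AT5G02540 stood at 2.99 in Ler replicate 2, where the other Ler arrays lay between 3.99 and 4.37. CDL1 stood at 6.25 in Ler replicate 2, with the others between 5.78 and 5.87. UBQ3 stood at 7.03 in NILDOG1 replicate 2, with the others between 7.88 and 8.01. ADK2 stood at 8.51 in NILDOG1 replicate 5, with the others between 8.09 and 8.21. Chance flags about 1 in 20 groups, which gives 1.6 of the 32 groups examined for the 16 members. Over all members 14 of 170 groups were flagged where chance gives 8.5. What set these arrays apart was not tested.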

How the results depend on the processing

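The 12 members called in NILDOG1 minus Ler became 3 at an adjusted p under 1e-04 and stayed between 9 and 17 under the other settings, with 9 to 17 over the 19 fits that left out 1 array. AT5G02370, Cand6, RHL2, AT5G03020, AT5G03320, AtCDC48C, AT5G03345 and AT5G03370 kept their direction and their call under each alternative fit that tested them at 0.05 and without each array. AT5G02540 was lost with replicates 1 to 3 only, AT5G02570 and CDL1 likewise, and AT5G02570 and UBQ3 with only the compared groups in the fit. The low-value filter left AT5G02540 and AT5G03020 untested. The counts in the other comparisons were small and changed with the setting. For NILDOG2 minus Ler the count of 0 became 1 with array weights and 2 with the replicate block, and it was 0 without each array. For NILDOG3 minus Ler the count of 2 became 0 at 0.01, at 1e-04, with centred arrays, with quantile normalization and with only the compared groups, 1 with a trended prior and 5 with array weights, and it ranged from 0 to 6 without single arrays. For NILDOG6 minus Ler the count of 1 became 0 at both stricter thresholds, with quantile normalization, a trended prior or only the compared groups, and 2 with the replicate block or replicates 1 to 3 only, and it ranged from 0 to 4. Among NILDOG2, NILDOG3 and NILDOG6 the count of 1 became 0 at both stricter thresholds and with only the compared groups, 2 with array weights and 3 with the replicate block, and it ranged from 0 to 2. Between the replicate sets the count of 1 became 0 at 1e-04 and ranged from 1 to 3. With the replicate block the NILDOG1 and NILDOG3 counts were 12 and 3. The block called AT5G03230 (−0.51, adjusted p = 0.0481) and LCL1 (−0.74, adjusted p = 0.0399) in NILDOG2, where 0.985% of all genes were called, LPPgamma and MT2B in place of ADK2 in NILDOG3 (3.71%), LPPgamma in NILDOG6 (5.78%), and LCL1 and NAKR1 among the 3 lines (5.3%). The plants were grown in blocks, but the labels do not tie replicate numbers to them. The deviations of same-numbered arrays from their group means correlated with those of Ler at −0.10 to 0.29 in NILDOG1, −0.30 to 0.06 in NILDOG2, −0.003 to 0.25 in NILDOG3 and −0.08 to 0.37 in NILDOG6, and 4 of 14 arrays correlated best with the Ler array of their own number, so the numbers were not taken as pairs. Centring turned the median difference of the members from −0.07 to 0.05 in NILDOG3 and from −0.08 to 0.03 in NILDOG6. Over all genes the medians before centring were 0.0145 and 0.0095, and centring adds 1 amount per line to every gene. In NILDOG6 it called AT5G02720 (higher) in place of AT5G03230. The cause of these changes was not tested.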
